A study of Mus musculus with 6 samples.

Results

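Interferon beta and the genes that answer it were read from 6 dual-channel arrays of RAW 264.7 cells, a mouse macrophage line, after 1 h with lipopolysaccharide (LPS, 100 ng/ml) and LPS-binding protein (LBP, 100 pM), each array setting treated against untreated cells cultured for 1 h. LPS comes from the outer membrane of Gram-negative bacteria, and LBP is a serum protein that hands it on to the receptor complex. The genes were taken by name and every probe annotated to 1 of them was kept, which gave 8 probes of 6 genes (Ifnb1, Ifit3, Rsad2, Isg15, Ifih1 and Irgm1) out of 16281 probes and 10698 gene symbols in all. Both kinds of RNA came from the same line and the labels name no genetic change; they spell the line RAW 264.4 in places and it was taken for RAW 264.7. On 3 arrays, called forward here, the dye Cy5 carried the treated sample, and on the 3 swapped arrays Cy3 did; each kind is numbered set 1, set 2 and set 3. A transformed line stands in for macrophages here, and nothing in the labels says that the sets were separate cultures, so the p-values cover no more than the spread among these arrays, which may be technical.

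Each value below is a log2 ratio of treated over untreated RNA, so 1 stands for a doubling and a negative value for a fall. The direction is not stated. Cy5 was taken as the numerator because the Cy5 sample is labelled the test on every array. That direction is likely, and all signs would turn if Cy3 were the numerator. Ratios of the swapped arrays were multiplied by -1. An exact 0 was taken as no measured ratio, and zeros made up between 8.99% and 23.9% of an array. A measured ratio on each of the 6 arrays was there for 11442 probes, among them 7 of the 8. The 2 arrays of each set were averaged, and limma tested whether the 3 averages differed from 0, with Benjamini-Hochberg adjustment over the 11442 probes and a call at an adjusted p under 0.05. Under that rule 12.5% of all probes were called, 6.85% higher and 5.63% lower. The array values have no intensity scale, so transcript levels, and a check of the cell label by marker levels, could not be had. Of the marker genes on the array, 11 of 12 macrophage, 6 of 8 lymphocyte and 2 of 9 fibroblast or epithelial genes had a ratio on all arrays. In these lists Adgre1 (0.55), a macrophage marker, and the lymphocyte markers Cd4 (0.47) and Cd79a (0.20) were called higher and 0 probes lower, and their part in the results was not tested. The Cd4 value is from probe 14152. Probes 9088 and 12969 of Cd4 had no ratio on 4 and 3 arrays, and their measured ratios lay on both sides of 0.

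Type I interferon is made in waves. In macrophages, LPS bound by TLR4 signals through the adaptor TRIF to the kinase TBK1, which activates the transcription factor IRF3, and IRF3 acts with NF-kappaB and AP-1 factors at the Ifnb1 promoter. Secreted interferon beta then binds the receptor IFNAR1/IFNAR2, and the kinases JAK1 and TYK2 activate a transcription factor complex that holds STAT2 and IRF9 and binds the interferon-stimulated response element of many antiviral genes. Some of those genes can also be switched on by IRF3 directly, without secreted interferon.

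The promoters are shown first because the genes share binding motifs there and differed in response. All 6 genes had a RefSeq promoter window on GRCm38.p6, from 250 bases before to 50 after the annotated start. For Ifit3 the start used lies inside the annotated gene, which begins at chr19:34583119, so its stretch below does too. In the stretches below, printed 5′ to 3′ along the gene's strand, capitals mark every match, on either strand, to the response element core GAAANNGAA, to the IRF core AANNGAAA, which can overlap it, or to the NF-kappaB motif GGGANNTTC. The stretches hold every match in the windows except 1 in Ifih1.
Ifnb1, chr4:88522892-88522963, minus strand: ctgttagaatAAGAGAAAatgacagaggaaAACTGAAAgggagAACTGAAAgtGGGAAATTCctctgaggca
Ifit3, chr19:34583363-34583445, plus strand: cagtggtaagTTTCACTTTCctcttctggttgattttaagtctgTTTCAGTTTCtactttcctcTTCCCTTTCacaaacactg
Rsad2, chr12:26456541-26456582, minus strand: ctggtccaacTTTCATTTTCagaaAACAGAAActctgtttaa
Isg15, chr4:156200865-156200956, minus strand: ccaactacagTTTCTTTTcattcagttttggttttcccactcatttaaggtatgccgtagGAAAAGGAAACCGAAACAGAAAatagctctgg
Ifih1, chr2:62646206-62646235, minus strand: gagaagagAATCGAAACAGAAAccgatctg
Irgm1, chr11:48871425-48871460, minus strand: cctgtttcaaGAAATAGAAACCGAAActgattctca

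The response element core was found in the windows of 5 of the 6 genes, all except Ifnb1, against 8.56% of the 32851 mouse promoter windows of the same length. The IRF core was in all 6, against 23.9% of all windows. Ifnb1 alone of the 6 held the NF-kappaB motif, which 3.94% of all windows hold, and its 3 IRF cores lay beside it, the nearest ending 119 bases before the start. Isg15 had 3 overlapping response element cores between 78 and 58 bases before the start, Ifit3 also had 3, Irgm1 and Ifih1 had 2 each, and Rsad2 had 1. In Ifih1 the stretch shown lies after the start, with matches at bases 29 to 42, and its other response element core lay 112 to 104 bases before the start. Irgm1 carried the same core as Ifit3, Rsad2 and Isg15. Its ratio fell slightly, and the fall was not called on the swapped arrays alone (-0.079). The response element and NF-kappaB patterns were first searched 1 letter longer and were shortened with the matches known; the shorter patterns are looser, so more of all windows, and more places in these 6, match them. A match is a description of the letters only.

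**Figure D1:**
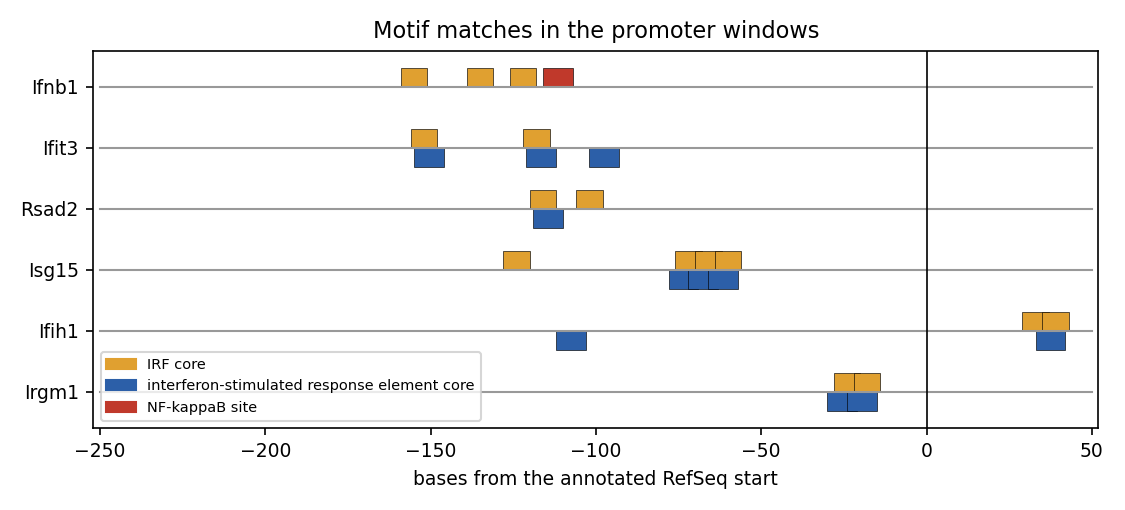
Matches to the IRF core (AANNGAAA, orange), the response element core (GAAANNGAA, blue) and the NF-kappaB motif (GGGANNTTC, red) in the promoter windows of the 6 genes, with the horizontal axis in bases from the RefSeq start. All 6 windows held an IRF core, 5 held a response element core and Ifnb1 alone held the NF-kappaB motif.

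Beside Ifnb1, 4 other genes were called higher on at least 1 probe after 1 h of LPS and LBP, and 1 was called lower. Ifnb1 and 1 probe of Ifit3 were the most raised of these probes in treated cells, with mean log2 ratios of 3.00 and 2.90, whereas Rsad2, Isg15 and Ifih1 were higher by less than a doubling. Irgm1 was slightly lower, and the other probe of Ifit3 was not called. In counts, 5 of the 7 measured probes were called higher and 1 lower, against 6.85% and 5.63% of all probes. A ratio above 0 on all 6 arrays was seen for the same 5, against 10.1% of all probes, and a ratio below 0 on all 6 for Irgm1, against 8.87%. The genes were chosen with earlier results of these data known, so these counts are a description and no test of the group.

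Ifnb1 encodes interferon beta, the cytokine that starts the response (probe 12557, accession NM_010510, gene on chromosome 4). Its ratios were 2.87, 3.26 and 2.34 on the forward arrays and 3.03, 3.67 and 2.83 on the swapped arrays, for sets 1, 2 and 3. Every array was thus far above 0, with set 2 the highest in both orientations. The mean was 3.00 ± 0.44 (SD, n = 3 sets), called higher in treated cells (limma, adjusted p = 0.000137, 95% interval 2.62 to 3.38). Among the 11442 probes it ranked 10 from the highest mean.

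The other type I interferon genes on the array were interferon alpha genes. Of the 8 interferon alpha genes with a ratio on all arrays, 0 were called by limma and 1, Ifna1, had an unadjusted p under 0.05, beside 12.5% of all probes called and 3032 of 11442 with such a p. On the forward arrays alone 2 were called higher, Ifna1 and Ifna7. The mean ratios ran from -0.09 for Ifna2 to 0.16 for Ifna7. In between were Ifna1 (0.13, 95% interval 0.019 to 0.25), Ifna11 (0.13), Ifna4 (0.07), Ifna6 (0.06), Ifna9 (0.02) and Ifna5 (0.015). The probe of Ifnab and second probes of Ifna6 and Ifna2 each lacked a ratio on 1 array. Their measured ratios lay on both sides of 0. These genes are close relatives of each other in sequence, so a probe may read several of them. Ifna7 averaged 0.58 on the forward arrays and -0.26 on the swapped ones, and Ifna2 averaged 0.36 and -0.54. The dye effects were 0.42 for Ifna7 and 0.45 for Ifna2 and were not called (limma, adjusted p = 0.192 and 0.238). A test on 3 averages can miss effects of that size. In sets 1 and 2 both probes were above 0 on the forward array and below 0 on the swapped one. In set 3 the orientations lay close, at 0.40 and 0.32 for Ifna7 and -0.10 and 0.087 for Ifna2. The upper bound of the highest interval of a mean in this group was 0.34, for Ifna7. The highest single ratio was 1.14, for Ifna11 on the forward array of set 2, below the lowest ratio of Ifnb1 (2.34).

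Ifit3 encodes a tetratricopeptide repeat protein of the IFIT family, which binds foreign RNA or assists relatives that do, and its 2 probes gave different values. Probe 2881 (accession NM_010501, a RefSeq transcript of Ifit3) had 2.35, 3.34 and 2.84 on the forward arrays and 2.78, 3.06 and 3.02 on the swapped arrays. Its mean was 2.90 ± 0.32, a 7.45-fold rise (adjusted p = 4.35e-05, rank 13 from the highest). Probe 17199 (accession L32974) had 0.058, 0.21 and -0.28 on the forward arrays and -0.28, 0.038 and -0.21 on the swapped arrays. Those 6 ratios fell on both sides of 0, 3 each way, and the mean was -0.077 ± 0.19 (adjusted p = 0.568, 95% interval -0.26 to 0.11). The lowest ratio of the first probe was 2.35 and the highest of the second was 0.21, so the probes did not overlap on any array.

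No other gene had probes so far apart. Of the 1493 genes with several complete probes, Ifit3 had the widest gap between its highest and lowest mean ratio, 2.97, and 1 gene, Ifit3 itself, reached that gap. The next widest, named after their values were seen, were 1.84 for Dusp2 and 1.76 for Fabp4, while the median gap was 0.066. Probes of 1 gene that differed in call were common by comparison, in 177 of the 289 such genes with a called probe. Averaging both Ifit3 probes gives 1.41, a value that neither probe showed on any array. Ifit3 has a near copy, Ifit3b, beside it on chromosome 19, and the promoter windows of the pair share an unbroken run of 169 bases. No probe here is annotated to Ifit3b (0 by gene ID), probe sequences were not used here, so signal of the 2 genes in either probe cannot be told apart.

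**Figure D2:**
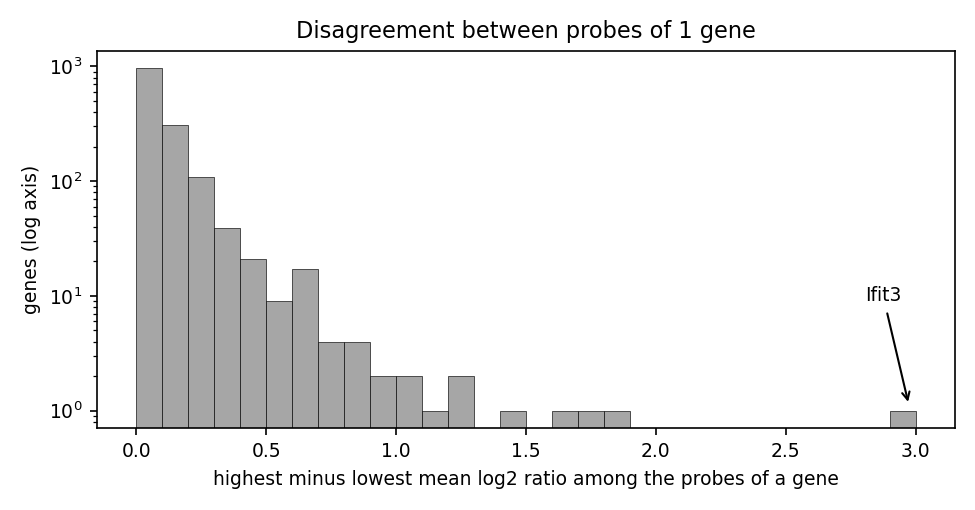
Gap between the highest and the lowest mean log2 ratio among the probes of a gene (horizontal axis), over the 1493 genes with several complete probes, with the number of genes on a log axis. Ifit3 stands alone at 2.97, beyond Dusp2 at 1.84.

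Other members of the IFIT family, which sit in the same gene cluster, had ratios much nearer to 0. Ifit1, which binds viral RNA caps, was called higher at 0.29 ± 0.16 on probe 1788 (adjusted p = 0.0442), and its second probe was listed at 0 on all 6 arrays. It was not called without set 1 or set 2, with zeros kept as ratios, nor in either orientation alone. Ifit2, named after its values were seen, averaged -0.20 ± 0.10 on probe 6062 and was not called (adjusted p = 0.0581). A second Ifit2 probe, 14057, had 5 measured ratios, between -0.47 and -0.21.

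Rsad2 encodes viperin, a radical SAM enzyme that blocks the replication of many viruses (probe 14552, chromosome 12). Its ratios were 0.73, 1.08 and 0.62 on the forward arrays and 0.76, 0.66 and 0.61 on the swapped arrays. All 6 were above 0, with forward set 2 standing above the other five. The mean was 0.74 ± 0.13, a 1.67-fold rise (adjusted p = 0.00079, rank 162).

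Isg15 encodes a ubiquitin-like modifier that is attached to other proteins during the interferon response (chromosome 4). On probe 164 the ratios were 0.84, 0.34 and 0.26 on the forward arrays and 1.11, 0.38 and 0.41 on the swapped arrays. Set 1 was high in both orientations and did not overlap the other sets. The mean of 0.56 ± 0.36, a 1.47-fold rise, passed the test narrowly (adjusted p = 0.0427), and it was 0.35 without set 1 (adjusted p = 0.0467). It did not pass in either orientation alone, after quantile normalization or with zeros kept as ratios. The second probe, 12272 (accession NM_015783, the RefSeq transcript of Isg15), was listed at 0 on all 6 arrays and gives no second reading.

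Ifih1 encodes MDA5, a helicase that senses long viral double-stranded RNA in the cytosol (probe 6997, chromosome 2). It had 0.70, 0.53 and 0.34 on the forward arrays, and on the swapped arrays it had 0.78, 0.47 and 0.43. Set 1 was again the highest in both orientations and set 3 the lowest, but all 6 ratios were above 0. It averaged 0.54 ± 0.18, or 1.45-fold (adjusted p = 0.00599, rank 236), and passed under each of the 12 alternatives tried.

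Irgm1 encodes a GTPase of the immunity-related family that acts in autophagy and in defence against bacteria inside cells, and which is best known as an interferon gamma target (probe 3539, accession U19119, chromosome 11). The ratios were -0.36, -0.51 and -0.23 on the forward arrays and -0.15, -0.035 and -0.053 on the swapped arrays. Every ratio was below 0, but the orientations did not overlap. The mean was -0.22 ± 0.07 (adjusted p = 0.031), so that Irgm1 was 1.17-fold lower in treated cells. On the swapped arrays the mean was -0.079 and did not pass, and leaving out set 1 (-0.21) or set 2 (-0.20), or keeping zeros as ratios (-0.22), also ended the call. The dye effect of this probe, the mean of the unturned ratios, was -0.15 and was not called (limma, adjusted p = 0.147). Dye effects were called for 0.0524% of all probes, but a test on 3 averages can miss them. Over all probes, unturned ratios correlated at 0.58 to 0.79 within an orientation and at -0.52 to 0.054 between orientations.

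**Figure D3:**
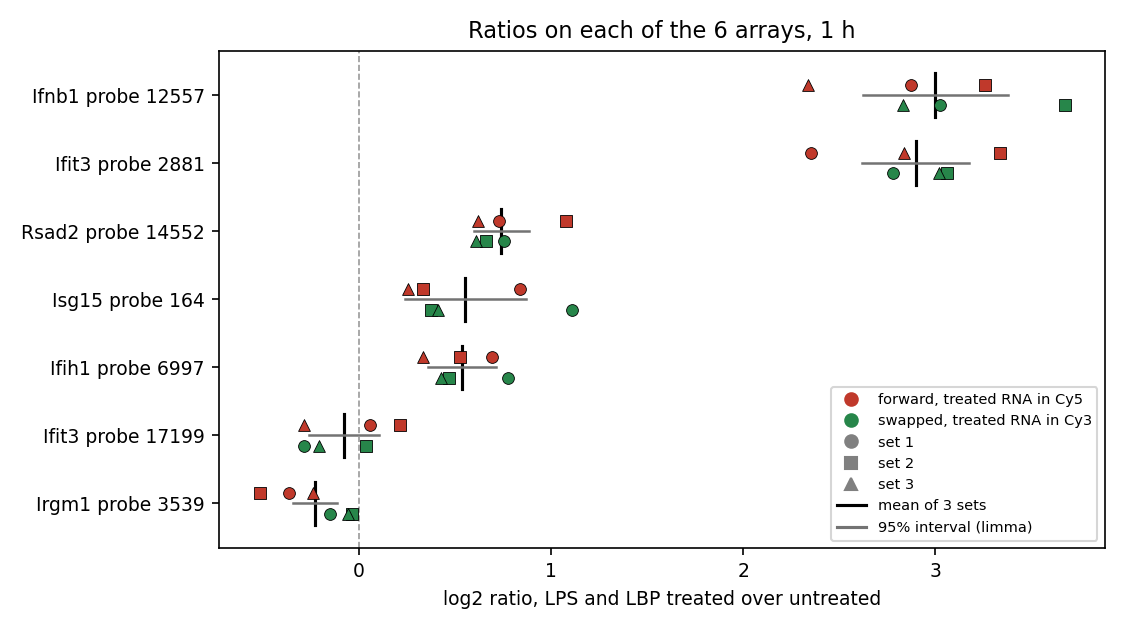
Log2 ratio of treated over untreated RNA (horizontal axis) on each of the 6 arrays for the 7 measured probes, ordered by mean. Red points are the forward arrays (treated RNA in Cy5) and green points the swapped ones, marker shapes are the sets, black bars the mean of 3 sets and grey bars the 95% interval from limma. Ifnb1 and Ifit3 probe 2881 lie at 2.34 or above on every array, and Irgm1 lies below 0 on every array.

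Placed in order of mean ratio, the probes fell into 3 steps. The mean of Ifnb1 was above that of Ifit3 probe 2881 by 0.10, with Ifnb1 higher on 3 of 6 arrays, so the order of this pair was not resolved. A gap of 2.15 separated Ifit3 probe 2881 from Rsad2, without overlap, and the difference was at least 1.62 on each array. Rsad2, Isg15 and Ifih1 overlapped one another, with neighbouring means 0.19 and 0.017 apart. Below them Ifit3 probe 17199 was lower than Ifih1 by 0.62 and on all 6 arrays, and it overlapped Irgm1, which was 0.15 lower in the mean. Differences between neighbours were described and not tested.

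The probes whose 6 ratios lay nearest to those of Ifnb1, by root mean square difference over the 6 arrays, belonged to Ifit3 (probe 2881, 0.41), Traf1 (0.42), Nfkbiz (0.42), Cxcl10 (0.43) and Myc (0.44). Cxcl10 encodes a chemokine that attracts T cells, and its probe 10651 averaged 2.83 ± 0.27. For Ifit3 probe 2881 the nearest were Nfkbiz (0.19), Traf1 (0.23), Myc (0.28), Lynx1 (0.35) and Tnf (0.36). Nfkbiz encodes an inhibitor-like protein of the NF-kappaB family, and its probe 14663 averaged 2.87 ± 0.25. Nfkbiz has 2 complete probes, whose means lay 1.70 apart and averaged 3.72, and only probe 14663 was among the nearest. Probe means lay 0.65 apart for Tnf, 0.33 for Cxcl10 and 0.023 for Traf1. The root mean square difference reflects the size of the mean as well as its spread over arrays.

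Upstream of Ifnb1, genes of its induction machinery rose more often than they fell. Of 18 complete probes of 13 genes, 8 were called higher (7 genes) and 2 lower (1 gene), against 6.85% and 5.63% of all probes, with a median of 0.14 against -0.0078 over all probes. This list too was chosen with earlier results of these data known, so its counts are a description only. Ikbke, an IKK-related kinase gene, rose by 1.32 ± 0.16 on probe 8199 (limma, adjusted p = 0.000139), whereas its other probe, 10507, averaged 0.11 and was not called (adjusted p = 0.169). Jun, an AP-1 subunit gene, rose by 0.74 ± 0.07 and Rela, an NF-kappaB subunit gene, by 0.63 ± 0.21, but Rela was not called on the swapped arrays alone (0.50). The gene of the LPS receptor itself, Tlr4, fell by 0.88 on probe 596 and by 0.66 on probe 2936, and its remaining probe at -0.17 was not called. The genes that follow were named after their values were seen. Tank rose by 0.48, with its second probe listed at 0 on all 6 arrays, and Irf1 rose by 0.44. Atf2 rose by 0.29 on probe 10476, and its probe 15630 (0.18) was not called. Tbk1, the kinase upstream of IRF3, rose by 0.23 and 0.22 on its 2 probes. Of the other IRF genes, Irf3 (0.025), Irf5 (0.048) and Irf7 (0.0072) were not called. Without set 1, 5 of the 18 probes were called higher in place of 8, and on the forward arrays alone 5 were.

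Downstream, the receptor and its signalling genes held 1 called rise and 2 called falls among 18 probes of 12 genes, near the 6.85% and 5.63% of all probes, with a median of 0.036 (-0.0078 over all probes). Stat2, whose protein joins IRF9 on the response element, fell by 0.48 ± 0.12 (adjusted p = 0.00399), under each of 12 alternatives. Ifnar2, a chain of the interferon receptor, fell by 0.25 ± 0.02 on probe 18493, and its second probe was between -0.64 and -0.23 on 5 measured arrays. Ptpn11, a phosphatase gene, rose by 0.24 ± 0.04 on probe 13753, while its probes 4892 (0.19) and 5781 (0.094) were not called and neither was the average of the 3 (0.17). Ifnar2 probe 18493 and Ptpn11 probe 13753 lost their calls without set 1, without set 2 and in each orientation alone.

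Among 31 complete probes of 26 other antiviral effector genes, 2 were called higher and 2 lower, near the 6.85% and 5.63% of all probes, with a median of -0.056 and a range from -0.30 to 0.34. Besides Ifit1, the DNA-binding gene Ifi204 was higher at 0.34 ± 0.12, and it averaged 0.095 on the forward arrays. The ubiquitin ligase gene Trim21 fell by 0.30 ± 0.07 and Rtp4 fell by 0.19 ± 0.02. Without set 1, none of these 4 passed the test. On the forward arrays alone Trim21 (-0.17) and Ifi204 also lost their calls, and Rtp4 was called under 6 of 12 alternatives.

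For genes that work with Isg15 and Ifih1 the counts were small, beside 12.5% of all probes called and 3032 of 11442 with an unadjusted p under 0.05. Of the 6 probes of 5 genes for ISG15 conjugation and removal, 0 were called by limma and 1 had an unadjusted p under 0.05, with means from -0.14 to 0.063. Among 6 probes of 5 genes of cytosolic nucleic acid sensing, 0 were called by limma and 1 had an unadjusted p under 0.05, with means from -0.066 to 0.14. Of the interferon-inducible GTPase genes related to Irgm1, 1 of 8 complete probes was called higher and 1 lower, against 6.85% and 5.63% of all probes. Irgm2, a relative of Irgm1, fell by 0.33 ± 0.09 (adjusted p = 0.00977) and the guanylate-binding protein gene Gbp3 rose by 0.29 ± 0.04 on probe 4230. The other Gbp3 probe, 18514, averaged -0.029 and was not called, and the average of both (0.13) did not pass (limma, adjusted p = 0.094). Neither Irgm2 nor Gbp3 probe 4230 passed without set 1 or on the swapped arrays alone.

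**Figure D4:**
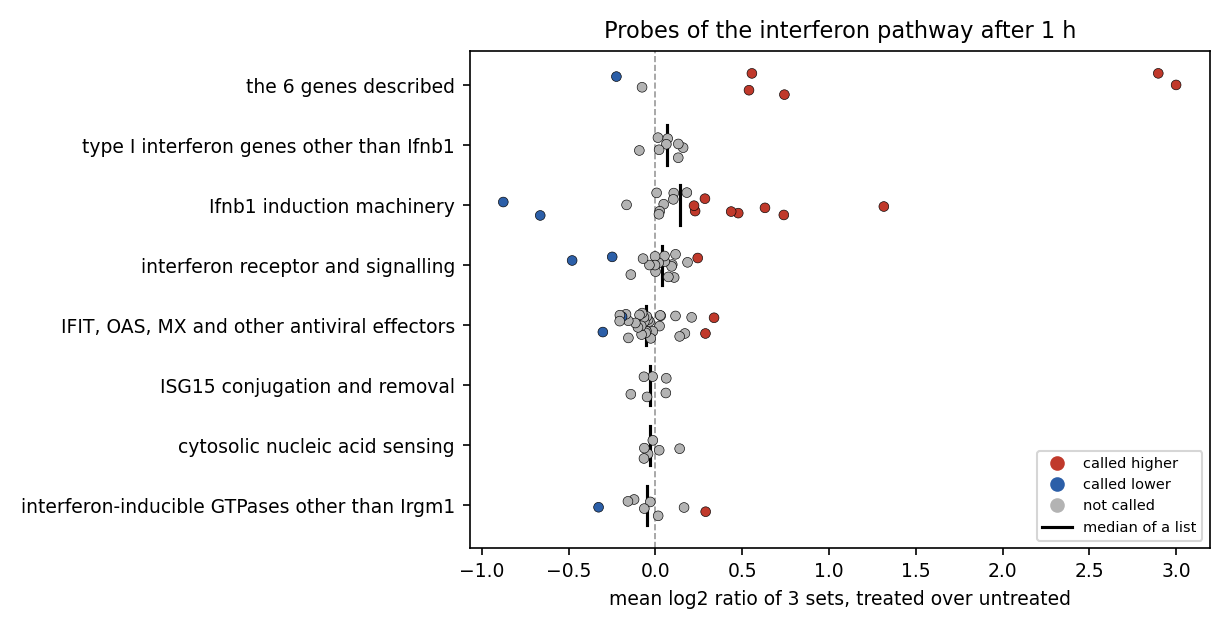
Mean log2 ratio of 3 sets (horizontal axis) for each complete probe of the 6 genes and of 7 lists of interferon pathway genes, in red where called higher, in blue where called lower and in grey where not called, with the median of each list as a black bar. Ifnb1 and Ifit3 probe 2881 lie at 3.00 and 2.90, while antiviral effectors other than the 6 genes lie between -0.30 and 0.34.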

How the data were processed

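The authors deposited log2 ratios between the channels, 16281 per array. How arrays were scanned, background-corrected and normalized is not given in the sources used here. Their base was read from the values: between 99.7284% and 99.888% of the non-zero deposited log2 ratios on an array became 6-digit numbers when turned into log10 (within a relative 1e-13). Array medians lay between 0.0043 and 0.016, so the arrays were centred near 0 in an unknown way, and the direction of the ratio is likely, not stated. Without intensities, signal over background is unknown and the number of arrays limits the precision.

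Of the probes, 13738 carried 1 symbol, 52 several and 2491 none, and the gene IDs of all 8 probes described matched RefSeq (GRCm38.p6). Set averages were tested with limma 3.58.1 (two-sided, lmFit then eBayes, with 2 degrees of freedom left and a prior of 3.985) in R 4.3.3, after a check on simulated ratios. Deviations of arrays that share a set number correlated at 0.0056, -0.258 and -0.0636. These 3 values gave no sign that a shared number marks a pair, but they cannot settle it. An SD over set averages can understate the spread between arrays. For Irgm1 it was 0.07, against 0.19 over the 6 arrays. The latter also holds the shift between orientations (means -0.37 and -0.079), which set averages cancel, so the 2 are unlike measures. The genes, lists and motifs were chosen with earlier results of these data known. Named besides the 6 genes are the 5 probes nearest to the highest probe of Ifnb1 and of Ifit3, every measured type I interferon gene, and of each list up to 3 called genes of largest rise and 2 of largest fall. Each setting below changed 1 choice at a time. Genes outside that rule are marked where they are named.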

Additional observations from a re-analysis of the deposited data

Results flagged for a closer look

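Rsad2 probe 14552 had 1 array apart from the other five. Set 2 of the forward arrays gave a ratio of 1.08, and the gap to the nearest other array was 0.686 of the whole range, above Dixon's 95% critical value for 6 values. Chance flags about 1 in 20 such groups, and 7 probes were examined. Without set 2, Rsad2 averaged 0.68 and was called (limma, adjusted p = 0.0018).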

How the results depend on the processing

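Ifnb1, Ifit3 probe 2881, Rsad2 and Ifih1 were called higher under each of 12 alternatives (limma). Their lowest and highest values were 2.77 and 3.21, 1.41 and 3.06, 0.68 and 0.81, and 0.44 and 0.62. The 1.41 is the average of both Ifit3 probes, and the lowest value of probe 2881 itself was 2.75, without set 2. Isg15 kept its sign and was called under 8 of 12. It did not pass with zeros kept as ratios (0.56), after quantile normalization (0.56), or on the forward (0.48) or swapped arrays alone (0.63), and it ran from 0.35 to 0.67 with 1 set left out. Irgm1 kept its sign and was called under 8 of 12, not with zeros kept as ratios (-0.22) or on the swapped arrays alone (-0.079), and from -0.26 to -0.20 with 1 set left out. Ifit3 probe 17199 turned sign without set 3 (0.0073) and with both Ifit3 probes averaged (1.41), the last by construction, and ran from -0.18 to 0.0073 with 1 set left out. With a set left out, 381 to 675 probes were called higher, against 784, and 240 to 570 lower, against 644. Fewer averages enter those fits. On the swapped arrays alone the counts were 515 and 322, against 699 and 634 on the forward arrays alone, and the cause was not tested. The set as a random replicate block, with a correlation of 0.081, gave 938 and 787 calls, against 1003 and 856 for 6 arrays with no replicate block, and changed no call of the 7 probes. In this hint from the data, arrays did not correlate best with their own set number. Among interferon alpha genes, none of them called in the full data, the sign turned on the swapped arrays alone for Ifna11 (-0.12), Ifna5 (-0.020), Ifna7 (-0.26) and Ifna9 (-0.051), on the forward arrays alone for Ifna2 (0.36), Ifna4 (-0.12) and Ifna6 (-0.051). With 1 set left out, Ifna5 ran from -0.051 to 0.086 and Ifna9 from -0.018 to 0.056. The causes were not tested.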
